A study of Mus musculus with 8 samples.

Results

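Cd3d, Cd3e and Cd3g are neighbouring genes on mouse chromosome 9 that encode the CD3 delta, epsilon and gamma chains, and Crxos1 is a homeobox gene beside Crx on chromosome 7. The 4 genes were chosen by symbol from tables of 39009 entries because earlier values of the same libraries showed Cd3d, Cd3g and Crxos1 as high only in induced pluripotent lines made from intestinal cells. Those levels therefore chose the genes, and they are given here as a description, with no test. The levels bear that description for Cd3d and Cd3g. They go against it for Crxos1, which was also high in the embryonic stem cell library, and Cd3e was above 1 FPKM in all 6 pluripotent libraries.

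The study measured by RNA sequencing the total RNA of mouse cells before and after reprogramming by chemical compounds, which gives chemically induced pluripotent stem cells, or CiPSCs. IEC-CiPSC is 2 lines, numbered 10 and 13, made from small intestinal epithelial cells. NSC-CiPSC is 3 lines, numbered 1 to 3, made from neural stem cells. ESC is 1 library of the R1 embryonic stem cell line, of strain 129X1 x 129S1. IEC is 1 library of primary epithelial cells of the small intestine taken from E13.5 embryos. NSC is 1 library of cultured neural stem cells, at passage 2, also from E13.5 embryos. The IEC-CiPSC, NSC-CiPSC, IEC and NSC libraries share a cross of C57BL/6J mice carrying the GOFGFP transgene, a green reporter driven by Pou5f1 sequences, with ICR mice. The transgene name carries a number that differs by 1 from library to library, running from 11 to 17, and that number was not interpreted. The compounds and their doses are not given in the labels. Separate animals or cultures are not stated for the lines, so a p-value covers only how far these lines differ from each other. Cell of origin cannot be told apart from anything else that differed between the derivations.

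In mature T cells, the CD3 chains form dimers (gamma with epsilon, delta with epsilon) that hold the antigen receptor at the cell surface, and together with the zeta chain, encoded by Cd247, they pass its signal to the kinases Lck and Zap70. A surface receptor of the alpha-beta form needs the alpha and beta chains, the CD3 gamma, delta and epsilon chains and zeta together. Some T cells carry a gamma-delta receptor in its place. The CD3 genes are textbook T lineage markers and are not known as genes of pluripotent or intestinal epithelial cells. Crxos1 took its name from its place beside Crx, which encodes a photoreceptor transcription factor, and it encodes homeodomain proteins described in preimplantation mouse embryos and embryonic stem cells.

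The files place Cd3g at chr9:44969572-44980431 on the minus strand, Cd3d at chr9:44981793-44987052 on the plus strand and Cd3e at chr9:44998743-45009590 on the minus strand (mm10; strands from GENCODE M21). Cd3g and Cd3d are divergent genes with 1361 bp between them. Cd3e lies 11.69 kb beyond Cd3d. Crxos1 (Crxos in the current annotation) is at chr7:15882617-15904030 on the plus strand, 2.648 kb from Crx. All 4 are annotated as protein coding. Cd3d has the identifier ENSMUSG00000032094, Cd3e ENSMUSG00000032093, Cd3g ENSMUSG00000002033 and Crxos1 ENSMUSG00000074365.

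The 250 bases before each annotated start are shown because Cd3g and Cd3d are transcribed away from each other out of a short shared stretch, and because Crxos1 has several starts whose use the gene tables cannot separate. All 4 genes were found in the RefSeq promoter table (GRCm38.p6), Crxos1 with 3 starts. Sequences run 5′ to 3′ on the gene's own strand. Capitals mark matches, on either strand, to 6 short motifs, none of which overlapped another. The first 2, bound by E proteins, are the E-box CACCTG and the other E-box form, CAGCTG. The motif AGATAA is bound by GATA factors, the motif AGGAAG by ETS factors, the motif CTTTGA by the TCF and LEF factors, and the motif TAATCC by Crx and by the Otx factors. The windows are chr9:44980432-44980681 (minus) for Cd3g, chr9:44981536-44981785 (plus) for Cd3d, chr9:45009612-45009861 (minus) for Cd3e, and, all on the plus strand, chr7:15882367-15882616, chr7:15895874-15896123 and chr7:15901396-15901645 for starts 1, 2 and 3 of Crxos1.
Cd3g: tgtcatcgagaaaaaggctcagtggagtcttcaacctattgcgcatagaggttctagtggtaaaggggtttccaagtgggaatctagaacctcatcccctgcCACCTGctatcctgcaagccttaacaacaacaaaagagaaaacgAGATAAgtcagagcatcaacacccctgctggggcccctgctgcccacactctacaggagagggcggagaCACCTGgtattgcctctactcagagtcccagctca
Cd3d: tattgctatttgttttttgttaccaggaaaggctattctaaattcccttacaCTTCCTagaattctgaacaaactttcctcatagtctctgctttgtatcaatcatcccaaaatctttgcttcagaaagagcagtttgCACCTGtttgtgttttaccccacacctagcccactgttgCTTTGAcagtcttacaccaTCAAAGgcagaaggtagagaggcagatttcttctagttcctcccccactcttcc
Cd3e: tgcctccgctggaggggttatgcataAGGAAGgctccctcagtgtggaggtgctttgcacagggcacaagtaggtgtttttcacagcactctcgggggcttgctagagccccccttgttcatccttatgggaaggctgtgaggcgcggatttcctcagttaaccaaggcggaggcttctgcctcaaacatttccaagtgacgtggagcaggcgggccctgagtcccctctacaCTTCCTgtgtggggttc
Crxos1 start 1: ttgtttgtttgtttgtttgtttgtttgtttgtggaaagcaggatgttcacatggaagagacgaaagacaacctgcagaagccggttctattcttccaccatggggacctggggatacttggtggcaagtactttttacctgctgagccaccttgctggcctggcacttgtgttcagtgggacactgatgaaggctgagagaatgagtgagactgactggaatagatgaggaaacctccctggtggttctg
Crxos1 start 2: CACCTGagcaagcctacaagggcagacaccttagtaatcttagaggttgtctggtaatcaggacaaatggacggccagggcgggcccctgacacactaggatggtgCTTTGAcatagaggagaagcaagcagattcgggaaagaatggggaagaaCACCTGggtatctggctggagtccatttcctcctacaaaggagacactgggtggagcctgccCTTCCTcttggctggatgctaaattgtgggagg
Crxos1 start 3: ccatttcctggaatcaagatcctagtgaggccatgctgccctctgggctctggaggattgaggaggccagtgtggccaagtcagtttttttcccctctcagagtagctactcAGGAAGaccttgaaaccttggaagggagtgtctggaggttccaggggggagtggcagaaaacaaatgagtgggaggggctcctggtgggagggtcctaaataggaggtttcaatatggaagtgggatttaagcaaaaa

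The Cd3d window held no CpG, that of Cd3g held 4 and that of Cd3e 7, against a median of 6 over 32817 mouse promoters. The Crxos1 windows held 2, 3 and 0 CpG in the order of their starts. CACCTG was found 2 times before Cd3g, once before Cd3d and 2 times before start 2 of Crxos1, and 17.2% of all promoters of this length hold it. CAGCTG, held by 13% of promoters, was in none of the 6 windows. AGATAA was found before Cd3g alone, and 9.99% of promoters hold it. AGGAAG was found before Cd3d, 2 times before Cd3e and before starts 2 and 3 of Crxos1, and 29.5% of promoters hold it. CTTTGA was found 2 times before Cd3d and once before start 2 of Crxos1, and 13.8% of promoters hold it. TAATCC, held by 6.25% of promoters, was in none of the windows. These matches describe letters only.

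Levels are FPKM, fragments scaled to transcript length and to the fragments mapped in the library, as deposited, and each comes with a 95% interval that covers counting and assignment error within its library. From that interval the number of fragments behind a value can be estimated. FPKM sums ran from 661114 to 771389 over the 8 libraries, and 12514 to 14018 genes reached 1 FPKM in each. The 2 IEC-CiPSC libraries correlated at r = 0.989 over genes, and the 3 NSC-CiPSC libraries at 0.969 to 0.987, with line 1 the farther from the other lines. IEC had 6 of 8 intestinal epithelium genes at 1 FPKM or more and NSC had 6 of 6 neural stem cell genes. Among the intestinal genes, Fabp1 was at 108.5 FPKM in IEC and at 0 elsewhere. Cdx2 was at 0.0912 FPKM and Fabp2 at 0.745 FPKM in IEC. Epcam (15.9 FPKM) and Cdh1 (11.9 FPKM) were lower in IEC than in every CiPSC line and ESC. Lgr5 was at 1.08 FPKM in IEC and 0.966 FPKM in NSC. Each CiPSC line and ESC expressed the 8 pluripotency genes examined, among them Pou5f1, which was at 1173 and 1206 FPKM in IEC-CiPSC, 848 to 1001 FPKM in NSC-CiPSC, 1041 FPKM in ESC, 0.0810 FPKM in IEC and 2.02 FPKM in NSC.

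Cd3d, the delta chain, had 30.0 FPKM (95% interval 26.8 to 33.2) in IEC-CiPSC line 10 and 29.9 FPKM (26.7 to 33.0) in line 13. These values rest on about 357 and 356 fragments. Cd3d was at 0, 0.289 and 0.0852 FPKM in NSC-CiPSC lines 1, 2 and 3, at 0.0876 FPKM in ESC and at 0 in IEC and in NSC. The 3 values above 0 outside IEC-CiPSC rest on 3, 1 and 1 fragments in the order given, so both IEC-CiPSC lines were high and every other library was at or near 0. The mean was 29.95 ± 0.109 FPKM in IEC-CiPSC (SD, n = 2) and 0.125 ± 0.148 FPKM in NSC-CiPSC (SD, n = 3).

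Cd3g, the gamma chain, had 24.8 FPKM (19.4 to 30.3, about 83.2 fragments) in IEC-CiPSC line 10 and 22.0 FPKM (16.9 to 27.1, about 74.2 fragments) in line 13. It was listed at 0 in NSC-CiPSC lines 1 and 2, at 0.473 FPKM in line 3, and at 0 in ESC, IEC and NSC. The value in NSC-CiPSC line 3 had an interval of 0 to 1.80 FPKM and came from less than 1 fragment after assignment. Cd3g thus separated the same libraries as Cd3d.

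Cd3e, the epsilon chain, behaved differently. It had 8.70 FPKM (7.07 to 10.3, 114 fragments) in IEC-CiPSC line 10 and 7.92 FPKM (6.37 to 9.47, 104 fragments) in line 13. NSC-CiPSC lines 1, 2 and 3 had 2.13 FPKM (1.31 to 2.95, 27.0 fragments), 2.10 FPKM (1.24 to 2.95, 24.0 fragments) and 2.63 FPKM (1.73 to 3.53, 34.0 fragments). ESC had 1.11 FPKM (0.518 to 1.71, 14.0 fragments), and IEC and NSC were listed at 0. All 6 pluripotent libraries were above both starting cell types, the IEC-CiPSC lines were above the rest without overlap, and the intervals of the NSC-CiPSC lines overlapped one another. The IEC-CiPSC mean was 3.64 times the NSC-CiPSC mean and 7.47 times the ESC value. The lowest IEC-CiPSC line was 3.01 times the highest NSC-CiPSC line. Such separation of the 2 groups was common, since of all genes tested 21% lay higher and 26.8% lower in both IEC-CiPSC lines than in the 3 NSC-CiPSC lines, so a lack of overlap is only a description.

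The balance of the chains therefore differed between libraries. Cd3d was 3.45 and 3.77 times Cd3e in the IEC-CiPSC lines, against 0, 0.138 and 0.0324 times in NSC-CiPSC lines 1, 2 and 3 and 0.0787 times in ESC. Cd3g was 2.85 and 2.78 times Cd3e in the IEC-CiPSC lines, against 0, 0 and 0.180 times in NSC-CiPSC and 0 in ESC. FPKM is per length, so these ratios compare levels between genes. In the IEC-CiPSC lines the order was Cd3d, Cd3g, Cd3e, with the intervals of Cd3d and Cd3g overlapping in both lines. In the NSC-CiPSC lines and ESC, Cd3e was the highest of the 3, and every Cd3d and Cd3g interval there reached 0.

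Crxos1 had 64.8 FPKM (56.1 to 73.5, about 222 fragments) in IEC-CiPSC line 10 and 77.2 FPKM (67.4 to 87.0, about 249 fragments) in line 13. It was at 0, 0.509 and 0.339 FPKM in NSC-CiPSC lines 1, 2 and 3, with about 1 fragment or none in each. ESC had 24.3 FPKM (18.7 to 30.0, about 74.2 fragments), and IEC and NSC were listed at 0. Crxos1 was thus high in 3 pluripotent libraries and at or near 0 in the 3 NSC-CiPSC libraries. The IEC-CiPSC mean, 71.0 ± 8.75 FPKM (SD, n = 2), was 2.92 times the ESC level, and the intervals of both lines lay above that of ESC.

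**Figure D1:**
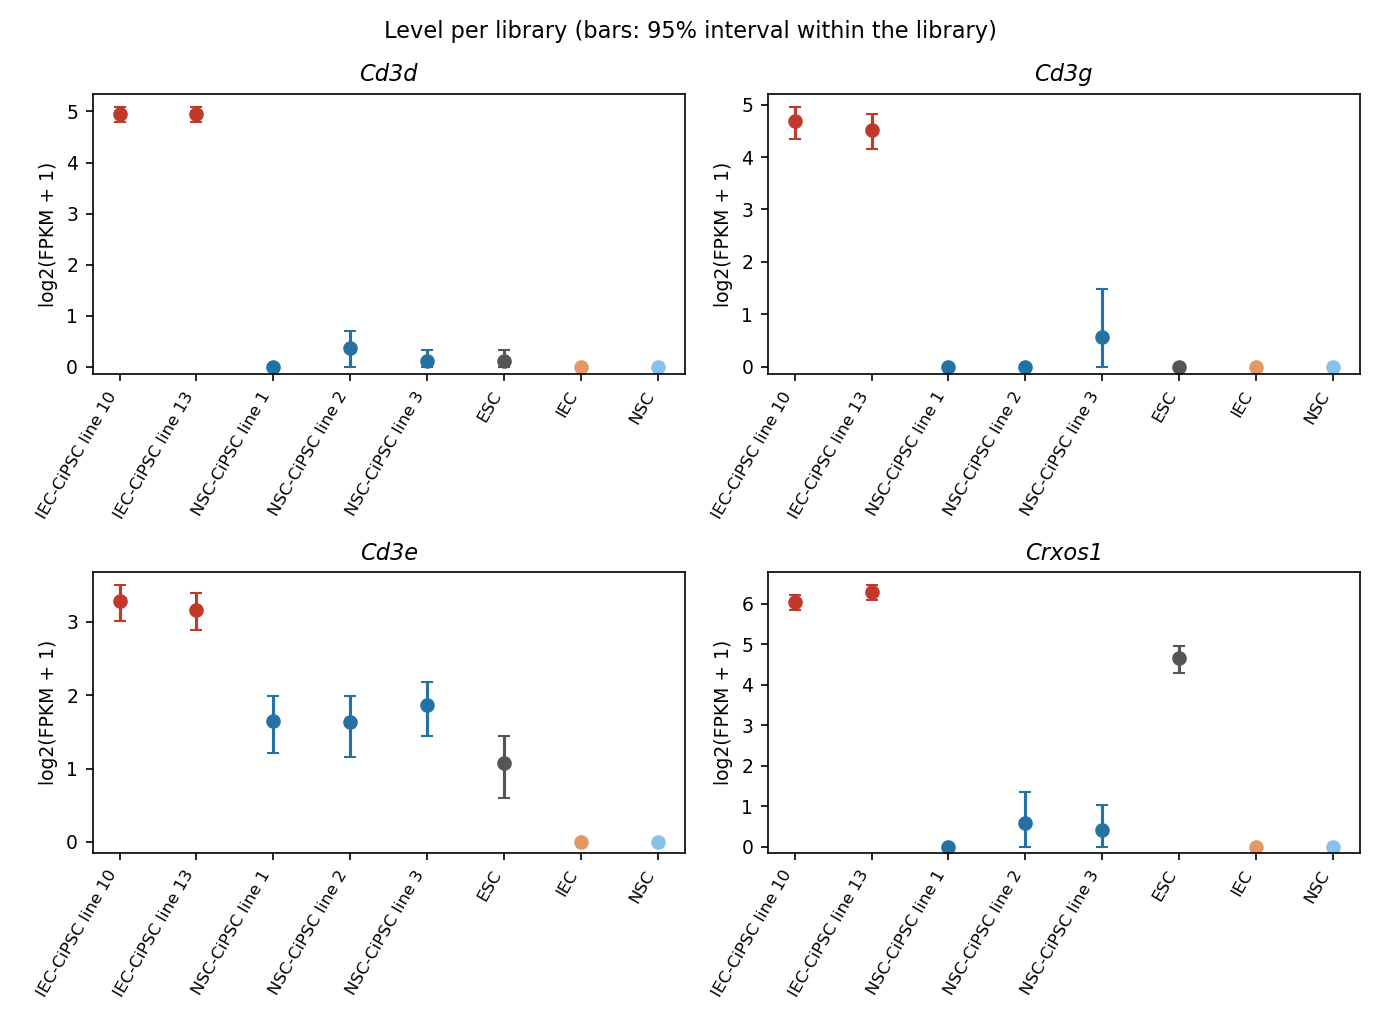
Level of Cd3d, Cd3g, Cd3e and Crxos1 in each library, as log2(FPKM + 1) on the vertical axis; points are libraries and bars the 95% interval within the library. Cd3d and Cd3g stand high in the 2 IEC-CiPSC lines alone, Cd3e is above 0 in all 6 pluripotent libraries, and Crxos1 is high in the IEC-CiPSC lines and in ESC.

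On the log2(FPKM + 1) scale, which understates changes of genes at low level, the difference of IEC-CiPSC and NSC-CiPSC was 4.79 for Cd3d, 4.42 for Cd3g, 1.51 for Cd3e and 5.83 for Crxos1. Ordered by this difference among the 17011 genes that reached 1 FPKM in any library, Crxos1 was number 5, Cd3d number 10, Cd3g number 11 and Cd3e number 308. All 4 genes passed that filter. Cd3d, Cd3g and Crxos1 passed it only through libraries in which they were high. Against ESC, the IEC-CiPSC difference was 4.83 for Cd3d, 4.61 for Cd3g, 2.14 for Cd3e and 1.503 for Crxos1. NSC-CiPSC minus ESC was 0.04 for Cd3d, 0.19 for Cd3g, 0.63 for Cd3e and -4.32 for Crxos1. These comparisons share the ESC library or the IEC-CiPSC lines. Each gene was listed at 0 in the IEC and NSC libraries, so RNA of all 4 genes was detected in the IEC-CiPSC lines and not in their source cells.

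Cd3d and Cd3g were among 9 genes with at least 5 FPKM in both IEC-CiPSC lines and under 1 FPKM in each of the other 6 libraries. The others were Fam183b, Ffar3 (a receptor for short-chain fatty acids), Gm11534, Ido2 (an enzyme of tryptophan breakdown), Mir1949, Pramel7 (a PRAME family gene of early embryos) and Stk33 (a kinase). At least 10 FPKM left 4 genes, Cd3d and Cd3g among them, and at least 2 FPKM gave 28. Just inside the threshold, Ffar3 had 5.29 and 6.13 FPKM in IEC-CiPSC lines 10 and 13. Just outside it, Gm12139 had 5.70 and 4.07 FPKM in these lines and was at 0 in the other libraries. Cd3e and Crxos1 were left out of this set by their levels in NSC-CiPSC and in ESC.

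Whether other parts of the T cell receptor accompanied the CD3 chains was read from a list of 20 receptor subunits and proximal signalling genes that leaves the CD3 genes out. In the fit across 17011 genes (limma on log2(FPKM + 1), Benjamini-Hochberg adjustment, called at adjusted p under 0.05 and at least 2-fold), 2.76% of genes were called higher and 1.56% lower in IEC-CiPSC than in NSC-CiPSC. Of the receptor list, 19 genes were found and 9 could be tested, and 0 were called in either direction. Of these 9, 3 (Trac, Lcp2 and Cd28) were under 1 FPKM in every CiPSC line and passed the filter through the source cells, so the count speaks for the other 6. The median log2 difference of the 9 was 0, beside -0.03 over all genes tested, and the value of 0 rests in part on these 3. For the whole comparison, limma called 735 genes, and 4894 had an unadjusted p under 0.05. The 735 became 123 without IEC-CiPSC line 10, 99 without line 13, 356 without NSC-CiPSC line 2 and 142 without line 3.

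The genes that complete the alpha-beta receptor were at 0 in the IEC-CiPSC libraries. The chains of the gamma-delta receptor were not read. Trac, Trbc1 and Trbc2, the constant regions of the alpha and beta chains, and Cd247, the zeta chain, were listed at 0 in both lines. Lcp2, an adaptor downstream of the receptor, was also at 0 there. The signalling genes that were expressed were so in all pluripotent libraries. Lck, the kinase that phosphorylates CD3 chains, had 6.15 and 10.8 FPKM in IEC-CiPSC, 14.9, 9.18 and 12.3 FPKM in NSC-CiPSC and 22.5 FPKM in ESC. Zap70, the kinase that binds them once phosphorylated, had 3.90 and 3.17 FPKM in IEC-CiPSC, 1.13, 4.23 and 2.69 FPKM in NSC-CiPSC and 1.97 FPKM in ESC. Lat, the membrane scaffold of the pathway, had 5.64 and 5.08 FPKM in IEC-CiPSC, 3.95, 3.75 and 3.87 FPKM in NSC-CiPSC and 4.46 FPKM in ESC. The IEC-CiPSC and NSC-CiPSC ranges overlapped for Zap70 and Lck and did not for Lat. Such separation was common, with 21% of all genes tested higher in IEC-CiPSC without overlap. The difference of Lat, 0.39 ± 0.09 (log2, SE), had an adjusted p of 0.0800 in limma.

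Of 15 T lineage regulators and surface genes, 8 were tested (6 of them at 1 FPKM or more in a CiPSC line). In IEC-CiPSC against NSC-CiPSC, 1 was called higher and 0 lower, beside 2.76% and 1.56% of all genes. The gene called was Gata3, a transcription factor of T cells and of several epithelia, at 3.69 and 2.90 FPKM in IEC-CiPSC, 1.26, 0.711 and 0.568 FPKM in NSC-CiPSC, 0.549 FPKM in ESC, 2.77 FPKM in IEC and 0 in NSC. Its log2 difference was 1.23 ± 0.20 (SE, limma adjusted p = 0.0420). That call ended with pseudocount 0.1 (adjusted p = 0.0633), with no filter on level (0.0649), with quantile normalization (0.0556) and without IEC-CiPSC line 10 (0.226), IEC-CiPSC line 13 (0.182), NSC-CiPSC line 2 (0.110) or NSC-CiPSC line 3 (0.127). Rag1 and Rag2, which rearrange receptor genes in lymphocytes, were at 0 in both IEC-CiPSC lines. Tcf7, a T cell factor that also acts in Wnt signalling, had 26.4 and 24.5 FPKM in IEC-CiPSC, 21.1, 30.1 and 26.7 FPKM in NSC-CiPSC and 25.6 FPKM in ESC. Thy1, a surface gene of T cells and neurons, had 5.34 and 4.65 FPKM in IEC-CiPSC, 1.78, 2.46 and 1.24 FPKM in NSC-CiPSC and 6.44 FPKM in ESC, a difference of 1.10 between the CiPSC groups (limma adjusted p = 0.0599). Il2rg, the shared chain of several interleukin receptors, had 2.23 and 3.11 FPKM in IEC-CiPSC and 2.44 FPKM in ESC. In NSC-CiPSC it had 1.26, 0.513 and 1.13 FPKM, a difference of 0.91 (limma adjusted p = 0.0983). Neither Thy1 nor Il2rg was called. Ets1 differed by -0.39, Ikzf1 by -0.03, Lef1 and Il7r by 0.02 and Tcf7 by -0.01, with none called. The median difference of the 8 genes tested was 0.02, beside -0.03 over all genes. Among the genes tested, Gata3, Thy1 and Il2rg were higher in IEC-CiPSC without overlap and Ets1 was lower. Runx3 and Bcl11b, under 1 FPKM in every library and not tested, were also lower without overlap. Of all genes tested, 21% lay higher and 26.8% lower in this way. That share does not cover Runx3 and Bcl11b, so their separation is only a description. Runx3 had 0.229 and 0.283 FPKM in IEC-CiPSC and 0.617, 0.582 and 0.798 FPKM in NSC-CiPSC. Bcl11b had 0.0829 and 0.209 FPKM in IEC-CiPSC and 0.254, 0.895 and 0.532 FPKM in NSC-CiPSC.

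Markers of blood cells in general were read next. Ptprc (CD45) was at 0 in both IEC-CiPSC lines. Of 12 pan-leukocyte and myeloid genes, 9 were under 1 FPKM in every library but IEC, which alone let them pass the filter. Of the 3 at 1 FPKM or more in a CiPSC line (Laptm5, Cd68 and Coro1a), 0 were called between IEC-CiPSC and NSC-CiPSC, nor was the 1 NK cell gene tested of 8. Over all genes, 2.76% were called higher and 1.56% lower in that comparison. Summed FPKM of the 12 leukocyte genes was 103 and 94.1 in IEC-CiPSC, 73.6, 64.1 and 71.8 in NSC-CiPSC, 115 in ESC, 4017 in IEC and 2.95 in NSC. In the pluripotent libraries most of this sum was Laptm5, a lysosomal membrane gene, at 87.3 and 82.8 FPKM in IEC-CiPSC, 58.9, 45.8 and 59.1 FPKM in NSC-CiPSC and 97.8 FPKM in ESC. Coro1a, an actin regulator of blood cells, was not called, with 1.86 and 1.17 FPKM in IEC-CiPSC, 3.96, 6.36 and 6.22 FPKM in NSC-CiPSC and 5.02 FPKM in ESC (-1.37, adjusted p = 0.0539). Low levels of other T cell surface genes were also present, in no common direction. Cd2 had 0.397 and 0.397 FPKM in IEC-CiPSC, 0.308, 0.283 and 0 FPKM in NSC-CiPSC and 0.129 FPKM in ESC. Cd6 had 0.625 and 0.454 FPKM in IEC-CiPSC, 0.345, 0.401 and 0.435 FPKM in NSC-CiPSC and 0.198 FPKM in ESC. Cd4 had 0.387 and 0.582 FPKM in IEC-CiPSC, 0, 1.54 and 0.128 FPKM in NSC-CiPSC and 0.132 FPKM in ESC. Cd8a had 0.0324 and 0 FPKM in IEC-CiPSC, 0, 0.185 and 0.131 FPKM in NSC-CiPSC and 0.0336 FPKM in ESC. Cd5, Cd8b1 and Cd28 were at or near 0 in every CiPSC line. Cd2, Cd6 and Cd8a were not tested. The part of any other cell type in the levels of the CD3 genes was not tested. Summed FPKM of the receptor list was 46.9 and 46.8 in IEC-CiPSC, 46.3, 54.5 and 56.0 in NSC-CiPSC, 65.6 in ESC, 99.4 in IEC and 243 in NSC, the last mostly Fyn, a kinase of neural and T cells.

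Leukocyte genes were highest in the IEC library, in which no CD3 RNA was detected. All 12 leukocyte genes were at 1 FPKM or more in it, with Lyz2, a macrophage lysozyme, at 2696 FPKM and Ptprc at 9.23 FPKM. Trac was at 0 in both IEC-CiPSC lines and at 14.4 FPKM in IEC, while Cd3d, Cd3e and Cd3g were at 0 in IEC. In IEC-CiPSC against IEC, 19.1% of all genes were called higher and 26.2% lower. Laptm5, Cd68 and Coro1a were among the genes called lower; so were the 9 leukocyte genes that had passed the filter through IEC alone, whose direction the filter fixed. Of the 9 receptor list genes tested, 3 were higher (Lat, Zap70 and Lck) and 5 lower (Trac, Cd4, Lcp2, Fyn and Cd28). Lcp2 and Cd28 had passed the filter through IEC alone, and Lat and Zap70 through the pluripotent libraries alone, which fixed their directions. Quantile normalization moved the median of all genes in this comparison by 0.18 (log2) and the share of calls that were higher to 52.6%, beside 42.2% in the deposited scaling. In bulk samples, fewer cells of a type and less RNA per cell cannot be told apart.

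**Figure D2:**
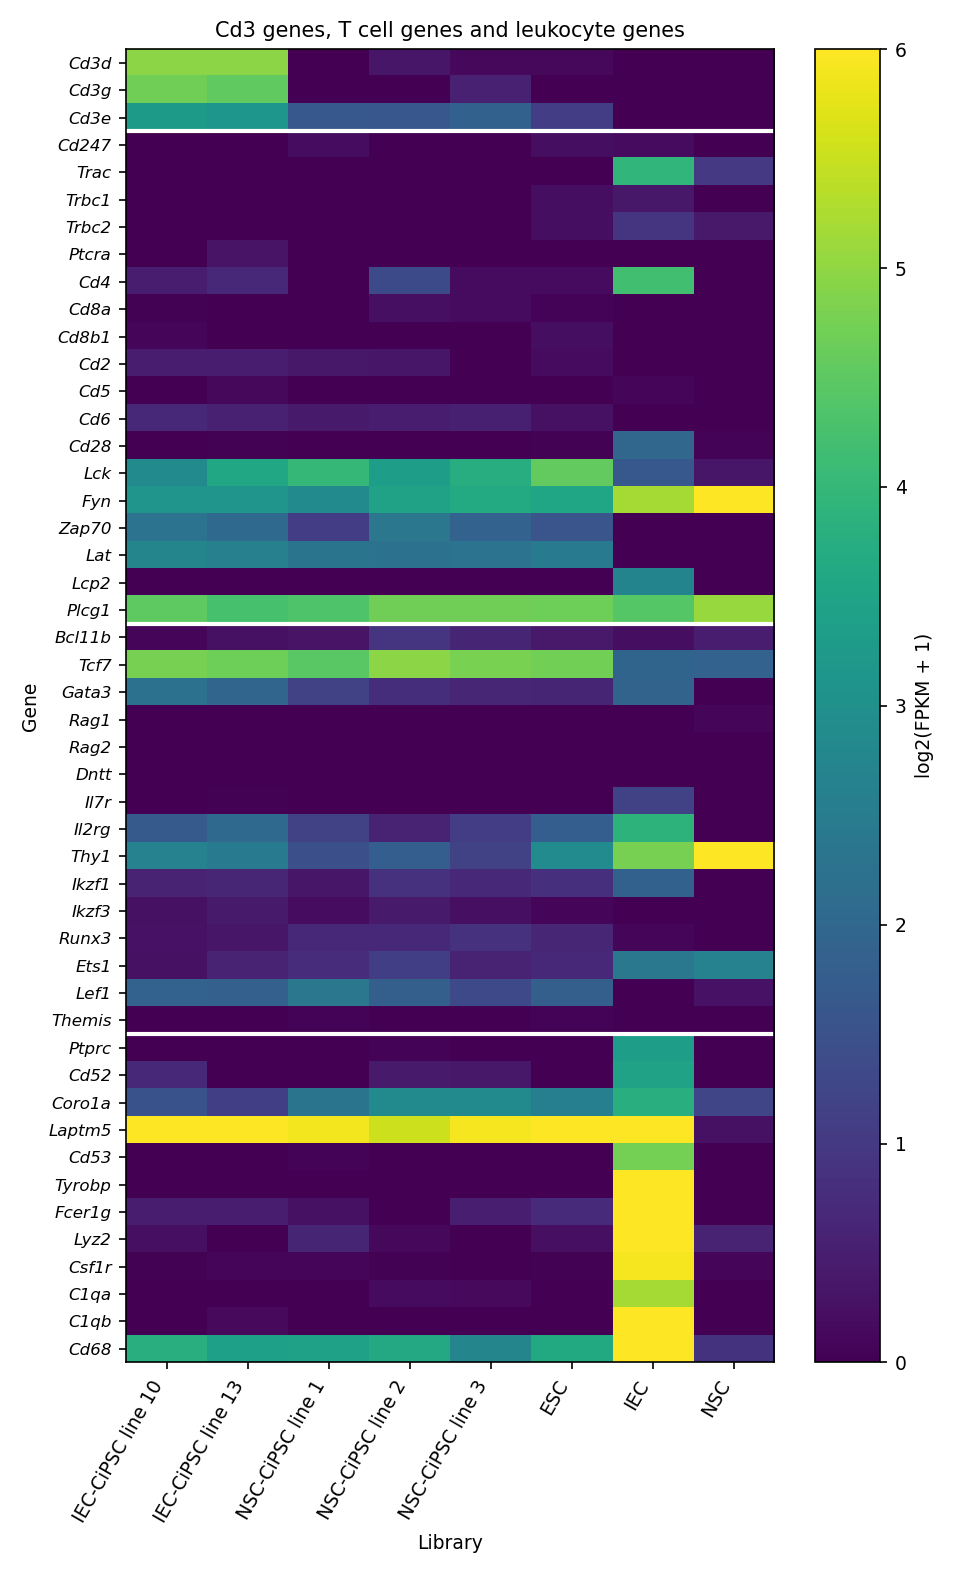
Heat map of log2(FPKM + 1), with libraries in columns and genes in rows; white lines separate the CD3 genes, the receptor and signalling list, the T lineage list and the leukocyte list, and the color scale stops at 6. Cd3d and Cd3g are bright in the IEC-CiPSC columns, where the receptor chain genes Trac, Trbc1, Trbc2 and Cd247 are at 0, and the leukocyte block is bright in the IEC column.

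The genes around the cluster were examined to see how far the difference extended. Within 200 kb of Cd3g, Cd3d or Cd3e the files list 16 other genes, of which 10 were tested and 2 were at 0 in all libraries. In IEC-CiPSC against NSC-CiPSC, where 2.76% of all genes were called higher and 1.56% lower, 1 of the 10 was called higher and 0 lower. Of these 10, 3 (Ttc36, Tmprss4 and Tmem25) were under 1 FPKM in every CiPSC line and passed the filter through a source library. The count therefore speaks for the other 7. The median difference of all 10 was -0.05, beside -0.03 over all genes, and it rests in part on these 3. The gene called was Mpzl2, a cell adhesion gene of the immunoglobulin superfamily, 32.834 kb beyond Cd3e. Mpzl2 had 36.6 and 33.7 FPKM in IEC-CiPSC, 11.7, 17.7 and 16.7 FPKM in NSC-CiPSC, 10.1 FPKM in ESC, 3.68 FPKM in IEC and 0 in NSC. All pluripotent libraries expressed it, and the IEC-CiPSC lines were above the others without overlap. This only describes the levels. Of all genes tested, 21% lay higher and 26.8% lower in both IEC-CiPSC lines than in the 3 NSC-CiPSC lines. The log2 difference of Mpzl2 was 1.16 ± 0.21 (SE, limma adjusted p = 0.0485). The call ended with pseudocount 0.1 (0.0548), with no filter on level (0.0706), and without IEC-CiPSC line 10 (0.253), IEC-CiPSC line 13 (0.232), NSC-CiPSC line 2 (0.0871) or NSC-CiPSC line 3 (0.140). Without NSC-CiPSC line 1 the difference was 0.99, just under 2-fold.

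The gene nearest to the pair of Cd3d and Cd3g showed no such difference. Ube4a, a ubiquitin ligase gene that ends 3.971 kb from Cd3g, had 7.18 and 7.68 FPKM in IEC-CiPSC, 14.2, 7.59 and 6.89 FPKM in NSC-CiPSC, 15.3 FPKM in ESC, 17.1 FPKM in IEC and 17.3 FPKM in NSC. The groups overlapped, and the difference was -0.26 ± 0.34 (log2, SE, limma adjusted p = 0.66). Without NSC-CiPSC line 1 it was 0.03. Mpzl3, beside Mpzl2, was at 1.28 and 0.667 FPKM in IEC-CiPSC and 1.91, 1.80 and 3.13 FPKM in NSC-CiPSC, with a difference of -0.73 (adjusted p = 0.161). Kmt2a, a histone methyltransferase gene, differed by -0.24 and Atp5l, an ATP synthase subunit gene, by -0.06, or by 0.02 with quantile normalization. Ift46, a ciliary transport gene at the far end of the window, had 161 and 205 FPKM in IEC-CiPSC and 77.0, 113 and 104 FPKM in NSC-CiPSC. Its difference was 0.91 with an adjusted p of 0.0838. Its intervals were wide for these levels, with about 73.2 and 69.3 estimated fragments in IEC-CiPSC and 172, 59.8 and 83.5 in NSC-CiPSC. The level of Ift46 is therefore not interpreted. Scn2b, a sodium channel subunit gene, differed by 0.58 with an adjusted p of 0.0691. The 6 genes not tested were all under 1 FPKM in every library.

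Against ESC, where 1.63% of all genes were called higher and 1.73% lower in IEC-CiPSC, 0 of the 10 genes near the CD3 cluster were called. Limma called 572 genes in that comparison, and 4096 had an unadjusted p under 0.05. Mpzl2 differed by 1.70 there (adjusted p = 0.0563). NSC-CiPSC against ESC, with 0.946% of all genes called higher and 1.86% lower, also gave 0 of 10. Limma called 478 genes there, and 3758 had an unadjusted p under 0.05. In both ESC comparisons, Ttc36, Tmprss4 and Tmem25 were under 1 FPKM in every library compared, so these counts speak for the other 7. Against its source, IEC-CiPSC had 1 of the 10 higher, Mpzl2 by 2.95, and 2 lower, Ttc36 by -4.21 and Tmprss4 by -1.83. In that comparison, 19.1% of all genes were called higher and 26.2% lower. Ttc36 and Tmprss4 had passed the filter through IEC alone, which fixed their direction. NSC-CiPSC against NSC had Mpzl2 higher by 4.01, and Tmem25 (-1.13) and Atp5l (-1.03) lower, beside 18.3% and 20.7% of all genes. Tmem25 had passed the filter through NSC alone, which fixed its direction. Mpzl2 was thus higher in the CiPSC lines than in the source cells of both routes.

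Around Crxos1 the files also list 16 genes within 200 kb, of which 7 were tested and 5 were at 0 in all libraries. Crx itself, the nearest, was at 0 in all 8 libraries. In IEC-CiPSC against NSC-CiPSC, where 2.76% of all genes were called higher and 1.56% lower, 2 of the 7 were called higher and 0 lower. Both lie on the Crx side of Crxos1, and 1 of them (Gm20608) had passed the filter through IEC-CiPSC alone. Obox6, of the Obox family of homeobox genes known from oocytes and early embryos, is 42.938 kb away. It had 4.64 and 4.55 FPKM in IEC-CiPSC, 0.171, 0.474 and 0.252 FPKM in NSC-CiPSC, 1.04 FPKM in ESC, 0 in IEC and 0.0897 FPKM in NSC. Its order of groups was that of Crxos1, with IEC-CiPSC above ESC and ESC above NSC-CiPSC. The difference between the CiPSC groups was 2.11 ± 0.11 (log2, SE, limma adjusted p = 0.0063). The call ended without IEC-CiPSC line 10 (0.0722), IEC-CiPSC line 13 (0.0741) or NSC-CiPSC line 3 (0.0522), with differences of 2.10, 2.13 and 2.09.

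The other gene called, Gm20608, 31.9 kb from Crxos1, is a short entry with few fragments. It had 1.46 and 0.991 FPKM in IEC-CiPSC from about 3 and 2 fragments, was at 0 in the 3 NSC-CiPSC libraries, and had 0.524 FPKM in ESC from about 1 fragment. Gm20608 passed the filter on level only through IEC-CiPSC line 10, which fixed its direction, so its call is no support. Every interval reached 0, its difference of 1.15 ± 0.10 (limma adjusted p = 0.0146) rests on 5 fragments, and the call was lost without IEC-CiPSC line 10 (0.99, under 2-fold), NSC-CiPSC line 2 (adjusted p = 0.0581) or NSC-CiPSC line 3 (0.0830). On the other side of Crxos1, Ehd2 differed by 0.27, Gltscr2 by 0.05, Gltscr1 by -0.20 and Napa by 0.10, none called, and Gltscr2 and Napa changed sign without NSC-CiPSC line 1 (-0.05) and without NSC-CiPSC line 2 (-0.09), in that order. Sepw1, a selenoprotein gene 13.177 kb away, differed by -1.25 (adjusted p = 0.0518). Its level is not interpreted, since its intervals were wide. They gave an estimate of 0.0183 to 1.29 fragments per FPKM, beside a median of 8.91 to 10.8 in coding genes. That estimate also carries assignment error, so it is not a count of fragments.

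**Figure D3:**
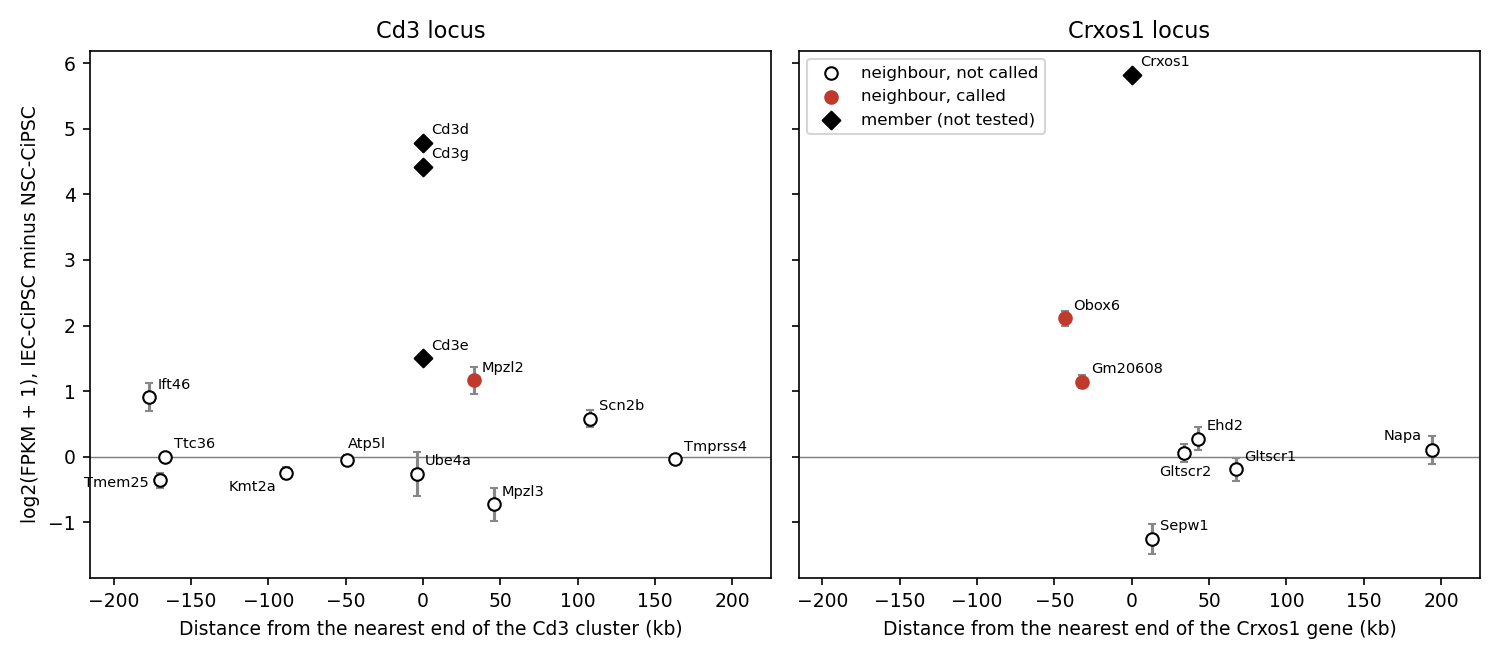
Difference of IEC-CiPSC and NSC-CiPSC on the log2(FPKM + 1) scale for each tested gene within 200 kb, against its distance in kb from the nearest end of the CD3 cluster (left panel) or of Crxos1 (right panel). Circles are neighbours with their SE, red where called, and diamonds the untested genes Cd3d, Cd3g, Cd3e and Crxos1; Mpzl2 at 1.16, Obox6 at 2.11 and Gm20608 at 1.15 are the neighbours called.

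Against ESC, 1 of the 7 genes near Crxos1 was called higher in IEC-CiPSC and 0 lower, beside 1.63% and 1.73% of all genes. This was Obox6, by 1.46 ± 0.15 (limma adjusted p = 0.0250). NSC-CiPSC against ESC, with 0.946% of all genes called higher and 1.86% lower, gave 0 of 7. Against IEC, IEC-CiPSC had Obox6 (2.48) and Gm20608 (1.15, again fixed by the filter) higher and Ehd2 (-5.07) and Sepw1 (-2.71) lower. Obox6 was at 0 in IEC and had passed the filter through IEC-CiPSC and ESC alone, so it could not have been called lower there. Of all genes, 19.1% were called higher and 26.2% lower there. Against NSC, NSC-CiPSC had Gltscr2 (1.17) higher and Ehd2 (-1.84) and Sepw1 (-1.28) lower, beside 18.3% and 20.7% of all genes.

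**Figure D4:**
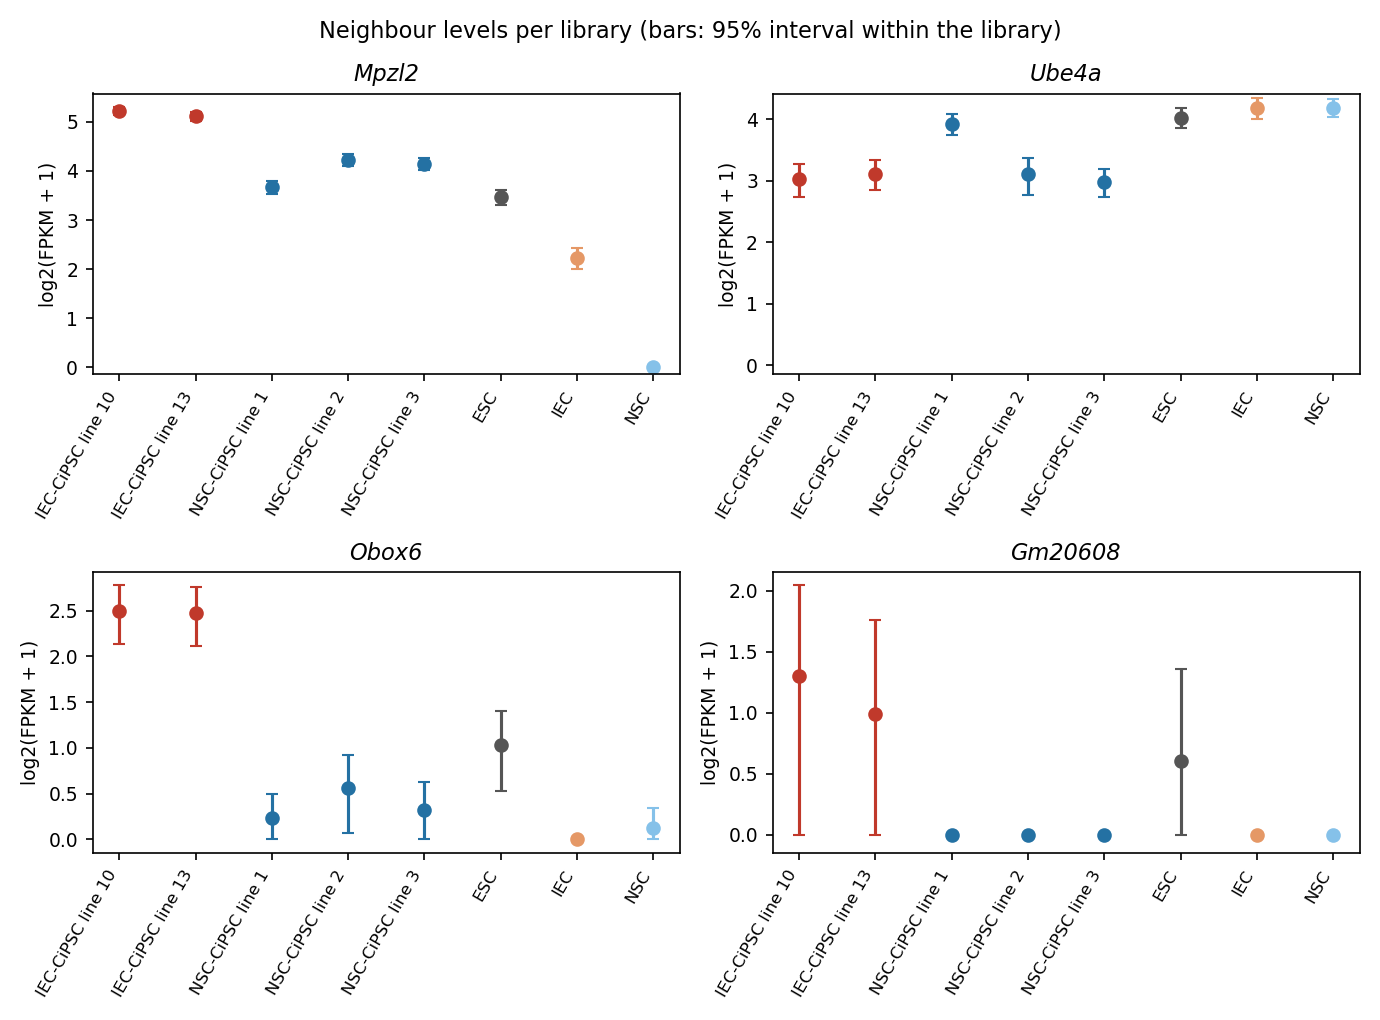
Level of Mpzl2, Ube4a, Obox6 and Gm20608 in each library as log2(FPKM + 1); points are libraries and bars the 95% interval within the library. Mpzl2 and Obox6 are highest in the 2 IEC-CiPSC lines, Ube4a overlaps between the CiPSC groups, and every interval of Gm20608 reaches 0.

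Genes related to Crxos1 by family or by neighbourhood with Crx were read from a list of 10 Crx, Otx and Obox homeobox genes, of which 8 were found and 3 tested. In IEC-CiPSC against NSC-CiPSC, where 2.76% of all genes were called higher and 1.56% lower, 2 were called higher and 0 lower. These were Obox6, described above, and Otx2, a transcription factor of the epiblast and the anterior nervous system, which lies on chromosome 14. Otx2 had 5.55 and 3.89 FPKM in IEC-CiPSC, 0.542, 0.580 and 0.533 FPKM in NSC-CiPSC, 10.7 FPKM in ESC, 0 in IEC and 2.73 FPKM in NSC. It was low in the same 3 pluripotent libraries as Crxos1, but in ESC it was above the IEC-CiPSC lines. Its difference was 1.87 ± 0.15 (log2, SE, limma adjusted p = 0.0125), and the call ended without NSC-CiPSC line 2 (0.0537) or line 3 (0.0793). Otx2 was the 1 gene of the list called in NSC-CiPSC against ESC, lower by -2.92. Obox1, Obox2, Obox3 and Obox5 were at 0 in both IEC-CiPSC lines, IEC and NSC and under 0.2 FPKM in the other libraries. Of 14 photoreceptor genes regulated by Crx, 1 (Sag) was tested, and it was not called between the CiPSC groups.

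Lists of the source tissues were read in the same fit. Between IEC-CiPSC and NSC-CiPSC it called 2.76% of all genes higher and 1.56% lower. Of 6 intestinal epithelium genes tested, 3 of which were under 1 FPKM in every CiPSC line, 0 were called between IEC-CiPSC and NSC-CiPSC, and of 6 neural stem cell genes 1, the glutamate transporter gene Slc1a3, was lower in IEC-CiPSC (-1.29, limma adjusted p = 0.0157). That call ended without IEC-CiPSC line 10 (0.118), IEC-CiPSC line 13 (0.132) or NSC-CiPSC line 3 (0.0734). Slc1a3 had 1.96 and 1.80 FPKM in IEC-CiPSC, 5.82, 6.87 and 5.55 FPKM in NSC-CiPSC and 6.08 FPKM in ESC. It differed from ESC by -1.30 in IEC-CiPSC and by -0.005 in NSC-CiPSC (log2), so the NSC-CiPSC lines were near the ESC level. Of the 8 pluripotency genes, 0 were called between the CiPSC groups. Their differences ran from 0.35 (Esrrb) to 0.73 (Nanog), all toward IEC-CiPSC, with a median of 0.41 beside -0.03 over all genes. Sox2 differed by 0.71 (limma adjusted p = 0.0086), which is under 2-fold. All 8 were called higher in IEC-CiPSC than in IEC, as were 19.1% of all genes. Nanog, Tdgf1 and Zfp42 were under 1 FPKM in IEC and NSC. They had passed the filter through the pluripotent libraries alone, which fixed their direction.

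The genes closest in pattern were ranked by Pearson's r of log2(FPKM + 1) over the 8 libraries, among 12943 genes that reached 5 FPKM in any library. With so few libraries, of which 2 set the high values, r describes who is high where and carries no p. With Cd3d, Cd3g had r = 0.994, Crxos1 0.845 and Cd3e 0.832. The 5 other genes closest to Cd3d were Mir1949 (0.999), Gm12139 (0.995), H2-Eb1 (0.991), Gm17081 (0.990) and Stk33 (0.989). None of them lies on chromosome 9. Mir1949, a short entry annotated as a small nucleolar RNA, had 220 and 243 FPKM in IEC-CiPSC and was at 0 elsewhere. H2-Eb1, a class II histocompatibility gene of antigen-presenting cells, had 73.2 and 70.7 FPKM in IEC-CiPSC, 2.00, 4.09 and 2.94 FPKM in NSC-CiPSC, 3.33 FPKM in ESC, 3.68 FPKM in IEC and 1.57 FPKM in NSC. Stk33 had 13.4 and 14.9 FPKM in IEC-CiPSC and was under 1 FPKM in the other 6 libraries.

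The 5 genes closest to Crxos1 were Xlr5b (0.999), Xlr5a (0.998), Xlr4a (0.997), Nxf3 (0.994) and Xlr5c (0.994), all on the X chromosome. The Xlr genes are a lymphocyte-regulated, X-linked family of near-identical copies, between which fragments may be split, so the 4 are not separate observations. Xlr5a had 37.9 and 39.1 FPKM in IEC-CiPSC, 0, 0.818 and 0.353 FPKM in NSC-CiPSC, 19.8 FPKM in ESC, 0 in IEC and 0.0801 FPKM in NSC. Nxf3, of a family of RNA export genes, had 7.05 and 7.92 FPKM in IEC-CiPSC, 0.0349, 0.154 and 0.539 FPKM in NSC-CiPSC, 3.66 FPKM in ESC and 0 in IEC and NSC. As for Crxos1, both were high in the IEC-CiPSC lines, intermediate in ESC and at or near 0 in the NSC-CiPSC lines. The CD3 genes were farther from this pattern, with r of 0.845 for Cd3d, 0.830 for Cd3g and 0.723 for Cd3e.

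**Figure D5:**
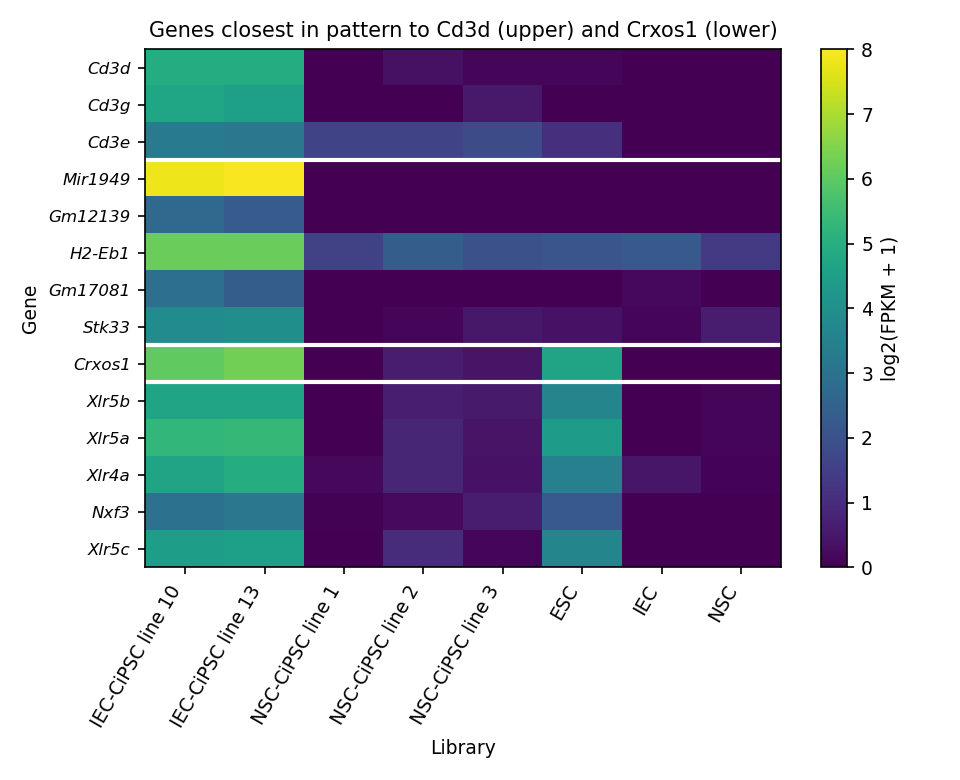
Heat map of log2(FPKM + 1) for the CD3 genes and the 5 genes closest in pattern to Cd3d (upper blocks), and for Crxos1 and the 5 closest to it (lower blocks), with libraries in columns. The upper genes are bright in the IEC-CiPSC columns, with Cd3e and H2-Eb1 also above 0 elsewhere, and the lower genes are bright in the IEC-CiPSC and ESC columns.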

How the data were processed

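RNA of 8 mouse libraries in 5 groups was analysed from gene tables of 39009 entries each. The deposited values are FPKM, used unchanged. For their making, the submitters' processing notes list TopHat and Cufflinks, with mm10 as the genome build. Tool versions, the annotation release and strand handling are not given in the sources used here. FPKM, its 95% interval and a status stand in each deposited file, and 447 entries not marked OK in every library were left out. Entries were matched to GENCODE M21 for biotype and strand (37451 identifiers). The fragments behind a value were estimated as the square of 2 times FPKM divided by the upper half-width of its interval, which covers counting and assignment error only.

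Genes at 1 FPKM or more in any library (17011) were tested on log2(FPKM + 1) with limma 3.58.1 in R 4.3.3. The fit had 1 mean per group over all 8 libraries and moderation with a trend (3 residual and 1.1 prior degrees of freedom), with two-sided p-values adjusted by Benjamini-Hochberg over all genes tested. ESC, IEC and NSC are 1 library each and took their spread from the CiPSC lines. Figures were drawn with matplotlib 3.10.9.

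Named are the 4 genes, every gene within 200 kb, genes of 9 lists that were called or reached 1 FPKM in an IEC-CiPSC line, and the 5 genes most correlated with Cd3d and with Crxos1. The text summarises some of these by counts, and 1 gene of the receptor list is not reported here. The 4 genes and the lists were chosen with earlier results of these data known. Promoter windows are the 250 bases before the RefSeq start. Alternatives were another pseudocount, other filters, quantile normalization, other windows and leaving out each CiPSC line.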

Additional observations from a re-analysis of the deposited data

Results flagged for a closer look

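For 3 neighbours of the CD3 cluster, the difference of CiPSC lines and source cells had opposite signs in the intestinal and the neural route, in every line, and the gap between the routes was not tested. Of these 6 differences limma called only that of Atp5l in NSC-CiPSC against NSC. Atp5l differed by 0.44 in IEC-CiPSC against IEC and by -1.03 in NSC-CiPSC against NSC, a gap of 1.47 (log2). Mpzl3 differed by -0.97 in IEC-CiPSC against IEC and by 0.69 in NSC-CiPSC against NSC, a gap of -1.66. Scn2b differed by -0.55 in IEC-CiPSC against IEC and by 0.23 in NSC-CiPSC against NSC, a gap of -0.79.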

How the results depend on the processing

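For the named genes, 648 alternative values were computed over 60 results. Of these, 583 stayed the same, 25 lost the call, 7 gained it (Sepw1 and Coro1a 3 each, Thy1 1), 20 moved beyond the replicate spread and 13 changed sign. For a tested gene, the same means that direction and call were kept. The 4 genes and the genes closest in pattern had no call, and for them it means a move smaller than the replicate spread. The genes called in IEC-CiPSC against NSC-CiPSC were 99 to 789 when a line was left out (735 with all lines), in IEC-CiPSC against ESC 153 to 890 (572), and in NSC-CiPSC against ESC 187 to 720 (478). The cause was not tested. The neighbours called near the CD3 cluster were 0 with pseudocount 0.1, 0 with no filter on level, and 0 to 0 when a line was left out. Near Crxos1 they were 1 with a filter of 5 FPKM, which Obox6 and Gm20608 do not reach and under which Sepw1 was called, and 0 to 2 when a line was left out. The genes high in IEC-CiPSC alone were 28 at 2 FPKM and 4 at 10 FPKM. Each sign change was of an uncalled difference between the CiPSC groups. Quantile normalization gave 0.0190 for Atp5l, 0.0092 for Epcam and 0.0064 for Tcf7. Leaving out a line gave -0.44 to 0.0333 for Ube4a, -0.0538 to 0.15 for Gltscr2, -0.0859 to 0.23 for Napa, -0.0569 to 0.0317 for Epcam, -0.0666 to 0.22 for Sag, -0.24 to 0.29 for Lef1 and -0.15 to 0.10 for Tcf7. With pseudocount 0.1 the differences of Cd3d, Cd3g, Cd3e and Crxos1 were 7.28, 7.04, 1.82 and 7.89. Depth limits the levels of Cd3d, Cd3g and Crxos1 outside the libraries where they were high, which rest on 3 fragments or fewer. No paired analysis was possible because the groups compared share fewer than 2 replicate numbers or the numbers only name lines.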
